A study of Homo sapiens with 8 samples.

Results

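The HOOK genes HOOK1, HOOK2 and HOOK3 and the MAP7 genes MAP7, MAP7D1 and MAP7D3 encode proteins that link microtubules and their motors to cargo. They are 6 of the 19775 genes with 1 symbol on the Affymetrix U133 Plus 2.0 array, and 15 probe sets on the array carry their symbols. All 15 probe sets were taken. The set was selected on the values of HOOK1 and MAP7, which were lower in the mesenchymal lines and higher with an shRNA against ZEB1. Their differences in these comparisons are therefore a description with no test, and HOOK2, HOOK3, MAP7D1 and MAP7D3 were read from fits across all genes.

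Transcripts were measured on 8 arrays of cells derived from PC3, a human prostate cancer line. PC3-Epi (1 array) is a luciferase-positive PC3 population taken repeatedly from colonies of epithelial shape. Lines 1, 12 and 14 (PC3-EMT1, PC3-EMT12, PC3-EMT14, 1 array each, 3 EMT arrays) are mesenchymal populations isolated by their changed shape after PC3-Epi cells had been kept with human macrophages treated with IL4. None of these 4 carried an shRNA. PC3-EMT1 and PC3-EMT14 were also transduced with lentiviruses carrying a scrambled shRNA (Scr, 2 arrays) or the ZEB1 shRNA sh4 (sh4, 2 arrays). Every sample was grown in RPMI with serum, and the luciferase vector of PC3-Epi was shared by the lines derived from it. Only 1 shRNA sequence against ZEB1 was arrayed. A group holds different lines and no repeat cultures of a line are described, so the p-values measure the spread between lines and arrays, which can be technical. PC3-Epi has no replicate, and the number of arrays limits the precision.

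Hook proteins are adaptors of cytoplasmic dynein, the motor that walks towards the minus ends of microtubules. Through their N-terminal domain they bind dynein, through a coiled coil they help join it to dynactin, and through their C-terminal end and FHIP partners they bind cargo such as early endosomes. MAP7, first described as ensconsin or E-MAP-115 in epithelial cells, binds along the microtubule lattice with its N-terminal part and recruits kinesin-1, the plus-end motor made of KIF5 heavy chains and KLC light chains, with its C-terminal part. Epithelial cells arrange their microtubules along the apical to basal axis, and this array is rebuilt when cells take up a front to rear polarity.

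The values are log2 intensities and the 2 sets of arrays were scaled apart. The array median was 4.33 to 4.35 on the 4 untransduced arrays and 6.19 to 6.23 on the 4 transduced arrays, so levels were compared within a set only. The brightest of 27 probe sets for bacterial transcripts reached 4.43 to 4.56 and 5.85 to 6.00 in the 2 sets. It serves below as the background level of each array, and a probe set under it on every array of a group gives only a lower bound of a fold. ZEB1, the shRNA target and a repressor of epithelial genes, was at 3.08, under background, in PC3-Epi and at 6.81, 7.12 and 6.50 in the lines EMT1, EMT12 and EMT14. It was at 9.87 with Scr and 9.12 with sh4 in PC3-EMT1, and at 10.08 and 9.01 in PC3-EMT14, a mean difference of -0.91. These values are from the brightest of 4 ZEB1 probe sets, whose mean differences ran from 0.69 to 3.73 in the EMT lines and from -1.44 to -0.34 with sh4. Epithelial CDH1 was at 11.31 in PC3-Epi and at 3.07 to 4.00 in the EMT lines, and at 5.61 and 5.89 with Scr against 9.63 and 9.75 with sh4, with the EMT and Scr arrays under background. On the other CDH1 probe set the mean differences were -1.64 in the EMT lines and 0.04 with sh4. Epithelial ESRP1 was at 11.15 in PC3-Epi and at 2.89 to 3.24, under background, in the EMT lines, and EPCAM was at 12.86 and at 9.16 to 9.80. Of 7 epithelial markers limma called 5 lower in the EMT lines and 5 higher with sh4. KRT8 and KRT18 passed in neither comparison. They differed by -0.61 and -0.48 in the EMT lines and by 0.66 and 0.53 with sh4. Of 5 mesenchymal markers limma called 4 higher in the EMT lines and none lower, and FN1 differed by -0.37 without passing. VIM was higher by 1.91 on its brightest probe set and differed by -0.05 on the other. With sh4 limma called 1 of the 5 (ZEB1, adjusted p = 0.0422) lower and none higher, and CDH2 differed by 0.46. Of 11 macrophage markers on the array, 1 (LAPTM5) lay above background on the untransduced arrays and 4 on each transduced array. Their summed level, on the log2 scale, was 7.21 in PC3-Epi and 7.31 to 7.32 in the EMT lines, and 9.14 and 9.24 with Scr against 9.19 and 9.25 with sh4. The 4 on the transduced arrays were CSF1R, ITGAM, LAPTM5 and AIF1, with CSF1R at 6.71 to 6.79. PTPRC and CD14 lay under background on all 8 arrays.

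HOOK1 (chr1:59814949-59876322, GRCh38.p14, plus strand) and MAP7 (chr6:136342734-136550422, minus strand) are on different chromosomes. ZEB1 is known to bind the E-box CACCTG and its reverse complement CAGGTG, and the 2 genes that led to the choice differed in both comparisons, so the 250 bases before the annotated starts of the members were searched for these letters on both strands. The windows were those of RefSeq, and 10 windows of 5 of the 6 genes are reported. No window of HOOK3 is reported, so its letters are not given here. Matches were found in 2 of the 10 windows, 1 of HOOK1 and 1 of the 4 of MAP7. These are printed below 5′ to 3′ in the direction of the gene, with the matches in capitals.
HOOK1: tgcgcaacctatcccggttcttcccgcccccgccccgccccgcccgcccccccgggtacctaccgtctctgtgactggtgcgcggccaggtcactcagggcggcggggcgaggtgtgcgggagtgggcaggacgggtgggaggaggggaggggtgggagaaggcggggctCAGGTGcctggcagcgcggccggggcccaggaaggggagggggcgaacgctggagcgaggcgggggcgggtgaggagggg
MAP7: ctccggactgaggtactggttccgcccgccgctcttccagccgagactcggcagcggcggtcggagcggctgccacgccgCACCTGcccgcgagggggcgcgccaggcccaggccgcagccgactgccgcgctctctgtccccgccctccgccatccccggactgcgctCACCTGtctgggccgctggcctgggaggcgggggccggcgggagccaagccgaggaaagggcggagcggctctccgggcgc
The HOOK1 window is chr1:59814699-59814948 on the plus strand, and the match CAGGTG starts 80 bases before the annotated start. The MAP7 window is chr6:136550423-136550672 on the minus strand, and CACCTG starts at 170 and at 81 bases before the start. At least 1 match was present in 17.5% of all 35116 windows of this length and at least 2 matches in 2.53%, and 20.6% of 27305 genes had a match in any of their windows. The letters were not found in the other 3 MAP7 windows, in the 3 of HOOK2 or in those of MAP7D1 and MAP7D3. A match is a run of letters and no measurement of ZEB1 binding.

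HOOK1 was lower in every EMT line than in PC3-Epi and, in the transduced set, higher with sh4 than with Scr in both lines. Its brighter probe set (225792_at) was at 7.80 in PC3-Epi and at 3.77, 3.09 and 3.72 in the lines EMT1, EMT12 and EMT14. The 3 EMT values lay under background and were more than 4 log2 units below PC3-Epi, with a mean difference of -4.28 ± 0.38 (SD, n = 3 lines). Because the EMT lines were under background, PC3-Epi was at least 9.61-fold higher. In these bulk samples fewer cells with a transcript and less of it per cell cannot be told apart. In the transduced set the same probe set was at 4.40 with Scr and 7.67 with sh4 in PC3-EMT1, and at 5.95 and 7.99 in PC3-EMT14. Both Scr arrays were under background and both sh4 arrays above it. The differences were 3.27 and 2.04 (mean 2.65 ± 0.87, SD, n = 2 lines), and sh4 was at least 3.68-fold higher than Scr. As recorded, the gap between the lines lay mainly in the Scr arrays, where PC3-EMT14 was 1.55 higher than PC3-EMT1, while the sh4 arrays were 0.32 apart. Because both Scr values were under background, this line gap and the SD that rests on it are not measured sizes.

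The other HOOK1 probe set (219976_at) was at 6.76 in PC3-Epi and at 3.05, 3.00 and 3.29 in the EMT lines. With Scr and sh4 it was at 5.14 and 6.79 in PC3-EMT1 and at 5.25 and 7.21 in PC3-EMT14. It gave the same order of arrays as the brighter probe set between groups, with a mean EMT difference of -3.65 ± 0.16 (SD, n = 3) and a mean sh4 difference of 1.80 ± 0.23 (SD, n = 2). The Scr arrays were 0.10 apart on this probe set, also under background, so the line gap of the brighter probe set was not seen here. The bounds were at least 4.69-fold and at least 2.07-fold.

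MAP7 was lower in all EMT lines on each of its 3 probe sets and higher with sh4 in both lines, but the probe sets differed in the size of the sh4 difference. The brightest (215471_s_at) was at 7.22 in PC3-Epi and at 4.43, 4.91 and 4.54 in the lines EMT1, EMT12 and EMT14. The EMT lines did not overlap PC3-Epi and were lower, with a mean difference of -2.59 ± 0.25 (SD, n = 3). PC3-EMT12 alone of the EMT lines was above background, and PC3-Epi was at least 5.92-fold higher. It was at 6.15 with Scr and 7.12 with sh4 in PC3-EMT1, and at 6.07 and 6.95 in PC3-EMT14. All 4 of these were above background, both sh4 arrays were above both Scr arrays, and the differences of 0.97 and 0.88 (mean 0.92 ± 0.07, SD, n = 2) were under 2-fold. The Scr values were close to the background of 5.89 in PC3-EMT1 and 6.00 in PC3-EMT14, so the size of these differences is not well measured.

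The second MAP7 probe set (202889_x_at) was at 7.02 in PC3-Epi and 4.34, 4.56 and 4.32 in the EMT lines, and PC3-Epi was at least 5.58-fold higher. With Scr and sh4 it was at 6.08 and 6.89 in PC3-EMT1 and at 6.18 and 6.88 in PC3-EMT14, so that sh4 was 1.69-fold higher. These values followed those of the brightest probe set, and the Scr values were again close above background. The third (202890_at) was at 7.36 in PC3-Epi and at 3.28, 3.80 and 3.00 in the EMT lines. With Scr and sh4 it was at 5.13 and 7.59 in PC3-EMT1 and at 5.58 and 7.98 in PC3-EMT14. On this probe set PC3-Epi and the sh4 arrays were above background and the EMT and Scr arrays under it, so the mean differences of -4.00 ± 0.41 (SD, n = 3) and 2.43 ± 0.04 (SD, n = 2) correspond to bounds of at least 7.07-fold and at least 3.56-fold. Which transcripts of MAP7 the 3 probe sets read was not analysed here.

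**Figure D1:**
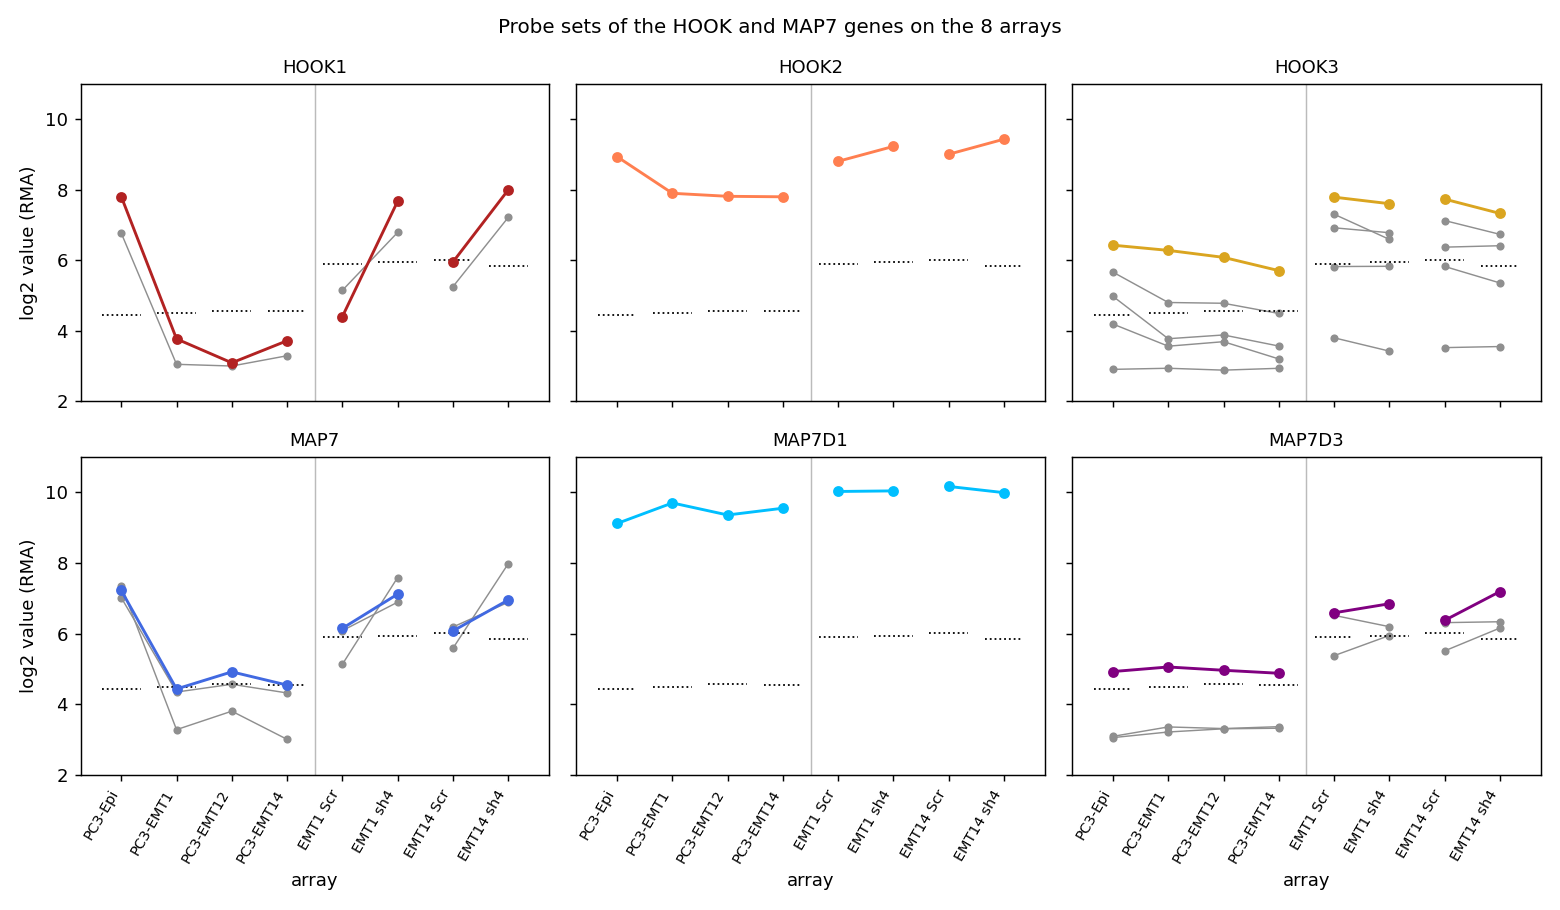
Log2 values (RMA) of all 15 probe sets on the 8 arrays, with the brightest probe set of a gene in colour and the others in grey; lines join the points of 1 probe set among the 4 untransduced arrays and within each Scr and sh4 pair, short dotted lines mark the highest bacterial control of each array, and the vertical line separates the 2 sets, which were scaled apart. On its brightest probe set HOOK1 lies at 7.80 in PC3-Epi against 3.09 to 3.77 in the EMT lines and, in the other set, at 4.40 and 5.95 with Scr against 7.67 and 7.99 with sh4, while MAP7D1 lies between 9.12 and 10.17.

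HOOK2, a paralogue of HOOK1 that has been placed at the centrosome as well as on dynein (chr19:12763003-12792350, minus strand), was lower in the EMT lines by a smaller amount. Its only probe set (218780_at) was at 8.93 in PC3-Epi and at 7.89, 7.81 and 7.79 in the lines EMT1, EMT12 and EMT14. The EMT values lay within 0.10 of each other and below PC3-Epi, and HOOK2 fell 2.14-fold (log2 difference -1.10 ± 0.14, SE, limma adjusted p = 0.00537). It was at 8.80 with Scr and 9.22 with sh4 in PC3-EMT1 and at 9.00 and 9.43 in PC3-EMT14. Both differences were close to 0.43, yet the mean of 0.43 ± 0.13 (SE) did not pass (limma adjusted p = 0.15). All HOOK2 values were above background.

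HOOK3, the paralogue that is broadly expressed and has served as a standard activator of dynein in reconstitution work, did not pass the test on its brightest probe set. That probe set (236192_at) was at 6.42 in PC3-Epi and at 6.28, 6.08 and 5.70 in the EMT lines (difference -0.40 ± 0.24, SE, limma adjusted p = 0.236). With Scr and sh4 it was at 7.78 and 7.60 in PC3-EMT1 and at 7.73 and 7.32 in PC3-EMT14 (difference -0.30 ± 0.15, SE, limma adjusted p = 0.333). In neither line was HOOK3 higher with sh4 on this probe set.

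The other 4 HOOK3 probe sets were dimmer and did not give 1 answer for the EMT lines. Probe set 226395_at was at 5.66 in PC3-Epi and at 4.80, 4.78 and 4.49 in the EMT lines, a mean difference of -0.97 that passed where every probe set was tested separately (limma adjusted p = 0.0157). Probe set 235114_x_at was at 4.97 in PC3-Epi and at 3.77, 3.88 and 3.57 in the EMT lines, with the EMT values under background, so that PC3-Epi was at least 1.35-fold higher, and it was too dim to be tested. Probe set 224359_s_at had a mean difference of -0.71 with all 4 arrays under background, and 1558315_s_at lay between 2.88 and 2.94 on all 4 arrays. With sh4 the 4 differed by means of -0.55 to -0.05, and none of the 3 tested passed (limma adjusted p from 0.145 to 0.893).

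MAP7D1 (chr1:36156160-36180849, plus strand), a broadly expressed relative of MAP7 that can also bind kinesin-1, was high in every sample. Its probe set (217943_s_at) was at 9.12 in PC3-Epi and at 9.70, 9.36 and 9.55 in the EMT lines. All 3 EMT values were above PC3-Epi, in the direction opposite to MAP7, but the difference of 0.42 ± 0.18 (SE) did not pass (limma adjusted p = 0.123). With Scr and sh4 it was at 10.02 and 10.04 in PC3-EMT1 and at 10.17 and 9.99 in PC3-EMT14 (mean -0.08 ± 0.12, SE, limma adjusted p = 0.783).

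MAP7D3 (chrX:136213220-136256482, minus strand), another relative that binds microtubules and kinesin-1, was at 4.92 in PC3-Epi on its brightest probe set (219626_at) and at 5.05, 4.96 and 4.87 in the EMT lines. These values overlapped (difference 0.04 ± 0.15, SE, limma adjusted p = 0.857). It was at 6.59 and 6.84 with Scr and sh4 in PC3-EMT1 and at 6.37 and 7.19 in PC3-EMT14, higher with sh4 in both lines by a mean of 0.54 ± 0.16 (SE) that did not pass (limma adjusted p = 0.148). A dimmer probe set (219576_at) differed by 0.57 and 0.65 (limma adjusted p = 0.0956 where every probe set was tested), and the third (237842_at) by -0.32 and 0.03. Both dimmer probe sets were under background on all untransduced arrays.

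**Figure D2:**
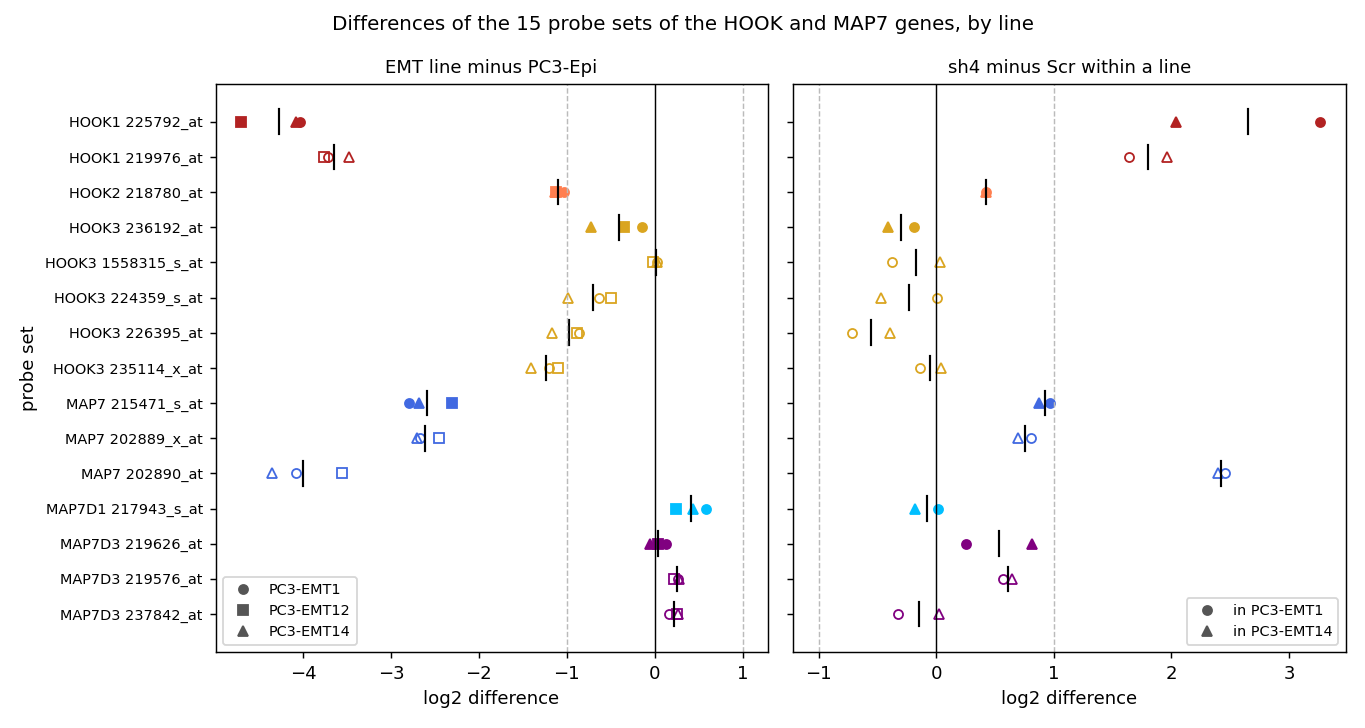
Log2 differences of the 15 probe sets in each line, EMT line minus PC3-Epi on the left and sh4 minus Scr on the right; filled symbols are the brightest probe set of a gene, open symbols the others, short black bars the mean over lines and dashed lines 2-fold. All probe sets of HOOK1, HOOK2 and MAP7 lie left of -1 in the 3 EMT lines, and 3 probe sets, both of HOOK1 and 202890_at of MAP7, lie right of 1 with sh4 in both lines.

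Over the 15 probe sets, 10 had a lower mean in the EMT lines and 7 were 2-fold or more lower in all 3 as measured, namely both of HOOK1, the 1 of HOOK2, 1 of 5 of HOOK3 (under background in the EMT lines) and all 3 of MAP7. With sh4, 8 were higher in both lines and 3 were 2-fold or more higher in both, namely 2 of HOOK1 and 1 of MAP7. HOOK1 and MAP7 were chosen on these comparisons, and the same counts were not made over all probe sets. Nothing is therefore read from these counts of probe sets. On the brightest probe sets all 6 genes passed the filter on low values in both comparisons, and HOOK1, HOOK2 and MAP7 were 2-fold lower in every EMT line, as were 4.9% of the 11921 genes tested, while 2.95% were 2-fold higher. HOOK1 alone of the 6 was 2-fold higher with sh4 in both lines on its brightest probe set, as were 0.276% of 16662 genes, while 0.132% were 2-fold lower. HOOK1 was among the 38 of 11908 genes (0.319%) that met both rules, and nothing is read from this, since the choice used these comparisons. Of the 4 genes not used for the choice, 1 (HOOK2) fell and none rose in the EMT lines, where limma called 15.4% of all genes lower and 13.9% higher. None of the 4 passed with sh4, where limma called 0.69% higher and 0.486% lower. With the 4 transduced arrays alone limma called 0 genes (2499 at an unadjusted p under 0.05). Of the 38 genes, 25 had a promoter window, and 14 of these (56%) held CACCTG or CAGGTG before a start. The share was 21.6% of the 13142 genes that had a window and were tested in either comparison. A gene counted if any of its windows held a match. HOOK1 is among the 14, and neither the number of windows per gene nor their GC content was matched. No test was made of this share, and nothing is read from it.

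**Figure D3:**
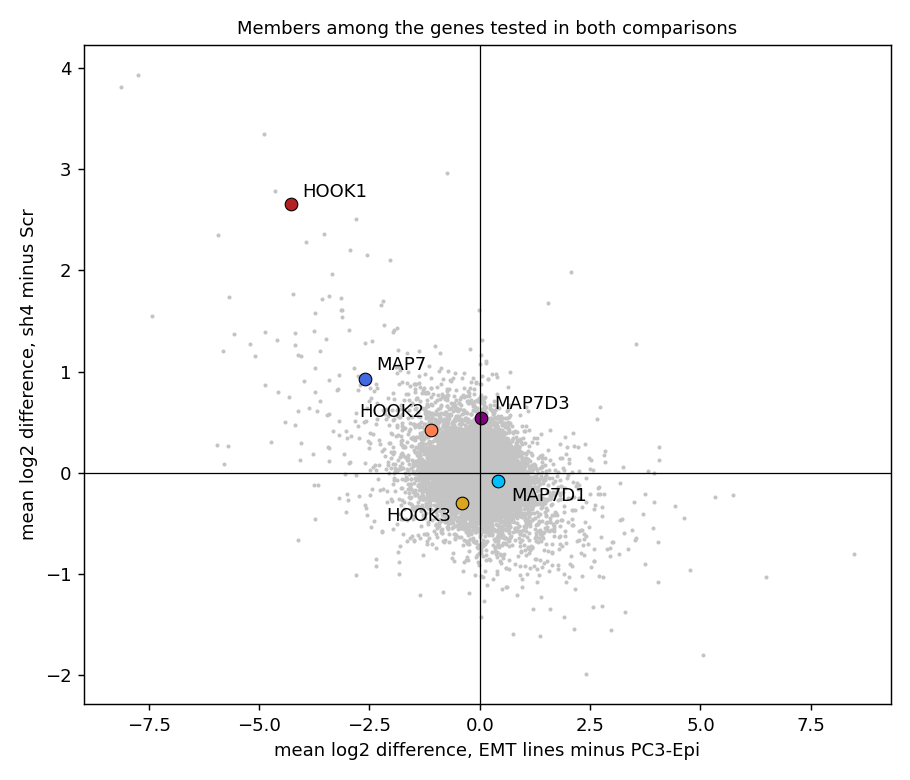
Mean log2 difference of the EMT lines from PC3-Epi (x axis) against that of sh4 from Scr (y axis) for the 11908 genes tested in both (grey points), with the 6 HOOK and MAP7 genes in colour by their brightest probe set. HOOK1 is at -4.28 and 2.65, MAP7 at -2.59 and 0.92 and HOOK2 at -1.10 and 0.43, whereas HOOK3, MAP7D1 and MAP7D3 lie within 0.54 of 0 on both axes.

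Levels of different genes were not ranked, since probe sets differ in brightness. After the mean of its own set was taken from each value, HOOK1 over the 8 arrays had a Pearson r of 0.97 with HOOK2 and 0.90 with MAP7, but 0.13 with HOOK3, 0.41 with MAP7D3 and -0.62 with MAP7D1. These points share the group differences on which HOOK1 and MAP7 were chosen. Among 506 genes that ranged over at least 1 log2 unit in both sets, those most like HOOK1 were VDR (r = 0.99), BAIAP2L1, ELOVL7, CDH3 and LSR (the last with r = 0.98), and 30 genes had r of 0.95 or more. VDR, the vitamin D receptor, was at 9.19 in PC3-Epi, at 7.43, 7.07 and 7.48 in the EMT lines, at 7.66 and 8.11 with Scr and at 8.64 and 9.11 with sh4. BAIAP2L1 couples membrane bending to actin, ELOVL7 elongates fatty acids, CDH3 is P-cadherin and LSR is a receptor at tricellular junctions. Those most like MAP7 were SH3YL1 (r = 0.99), BSPRY, DAPP1, NPNT and CDS1 (the last with r = 0.98), and 37 had r of 0.95 or more. SH3YL1 was at 10.15 in PC3-Epi, at 6.47, 6.95 and 6.78 in the EMT lines, at 8.33 and 8.69 with Scr and at 9.55 and 9.31 with sh4. The named genes are given for their pattern only.

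The genes around the HOOK and MAP7 proteins were read from 7 lists of 120 genes, 118 of them on the array under the symbols used. In the EMT lines 22 of 109 tested list genes rose and 16 fell, beside 13.9% higher and 15.4% lower of all genes tested. The median difference was 0.06, against 0.07 over all genes. These shares of all genes are the background of each list count below. Among the genes named below, BICDL2, KIF5C and APC passed the filter on low values only through PC3-Epi. MAP1A and TUBB4A passed it only through the EMT lines. These calls rest on values near or under background in the other group, which limits their p-values as well as the sizes. With sh4, 1 of 114 rose and none fell, with a median of -0.02 against 0.02, and 113 did not pass. No gene of these lists met the 2-fold rule in both comparisons.

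Of the 11 Hook partners, which are AKTIP, the FHIP proteins and the VPS subunits of the HOPS tether, 4 rose in the EMT lines, none fell and 7 did not pass (median 0.42). The 4 were all VPS genes. VPS18 was at 6.60 in PC3-Epi and at 8.65, 8.50 and 8.45 in the EMT lines, a rise of 1.93 (limma adjusted p = 0.00128) on its brighter probe set and of 0.66 on the other. VPS33A rose by 0.93, VPS16 by 0.75 and VPS39 by 0.73, and the probe sets of VPS33A ran from 0.51 to 0.93 and those of VPS16 from 0.06 to 0.75. AKTIP and the 4 FHIP genes, which join Hook proteins to cargo, differed by -0.35 to 0.44 and did not pass, and FHIP1A, with the largest sh4 difference of the list, was at 0.39 (limma adjusted p = 0.158).

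Among 17 tested dynein adaptors and regulators other than HOOK genes, 2 rose and 3 fell in the EMT lines (median -0.12). BICDL2, which links dynein to RAB-bearing vesicles, was at 5.59 in PC3-Epi and at 3.65, 3.70 and 3.55 in the EMT lines, so that it fell by 1.96 (limma adjusted p = 0.00107), with the EMT values under background, so that the size of its change is not measured. CCDC88C, a Hook-related protein also called DAPLE, fell by 1.01, while RAB11FIP3 and MAPK8IP3, adaptors of recycling endosomes and of JNK-associated cargo, rose by 0.91 and 0.84. The probe sets of CCDC88C ran from -1.01 to -0.32, and the lowest of RAB11FIP3 and of MAPK8IP3 was at 0.14. With sh4, BICDL2 was higher by 0.52 (limma adjusted p = 0.0946) and BICDL1 by 0.60 (0.136), and neither passed. Of 19 tested subunits of dynein and dynactin, 4 rose and 1 fell (median 0.03). DYNC1I1, an intermediate chain, rose by 2.40 (limma adjusted p = 0.00513), from 5.18 in PC3-Epi to 7.12, 7.84 and 7.78, whereas the other intermediate chain DYNC1I2 differed by -0.87 and did not pass (0.0612). DCTN6 fell by 0.60 and DYNLRB1 rose by 0.59, with probe sets of DYNLRB1 from -0.03 to 0.83 and of DYNC1I1 from 1.23 to 2.40, and DYNLT3 differed by -0.58 with sh4 without passing (0.0931).

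The kinesin list, which holds the motor that MAP7 recruits, had 1 rise and 5 falls among 16 tested (median -0.22), beside 13.9% and 15.4% of all genes. KIF5C, a kinesin-1 heavy chain, was at 8.00 in PC3-Epi and at 4.31, 4.67 and 4.73 in the lines EMT1, EMT12 and EMT14. It fell by 3.43 (limma adjusted p = 0.00056) on its brightest probe set, but the 3 probe sets ran from -3.43 to 0.04. On the brightest, PC3-EMT1 was under background and PC3-EMT12 and PC3-EMT14 were close above it, so the size of the fall is not well measured. KIF5C differed by 0.25 with sh4 and did not pass (limma adjusted p = 0.431). KLC3, a kinesin light chain, was at 7.67 in PC3-Epi and at 6.05, 5.64 and 6.05 in the EMT lines, so that it fell by 1.76 (limma adjusted p = 0.00432). It was at 7.00 with Scr and 7.90 with sh4 in PC3-EMT1 and at 7.15 and 8.04 in PC3-EMT14, and its rise of 0.89 was the one list call with sh4 (limma adjusted p = 0.0231). The call was lost without the line as a block (adjusted p = 0.113), with the 4 transduced arrays alone (0.223), without sh4 replicate 14 (0.124) and with the mean of its 3 probe sets (0.0633), which ran from -1.76 to 0.44 in the EMT lines. KIF5B, the widely expressed heavy chain, fell by 0.73 (limma adjusted p = 0.0424), a call lost with no filter on low values (0.0505) and without EMT replicate 1 (0.0651) or 14 (0.112). KIF3C, of another kinesin, rose by 0.65 and differed by -0.53 with sh4 without passing.

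**Figure D4:**
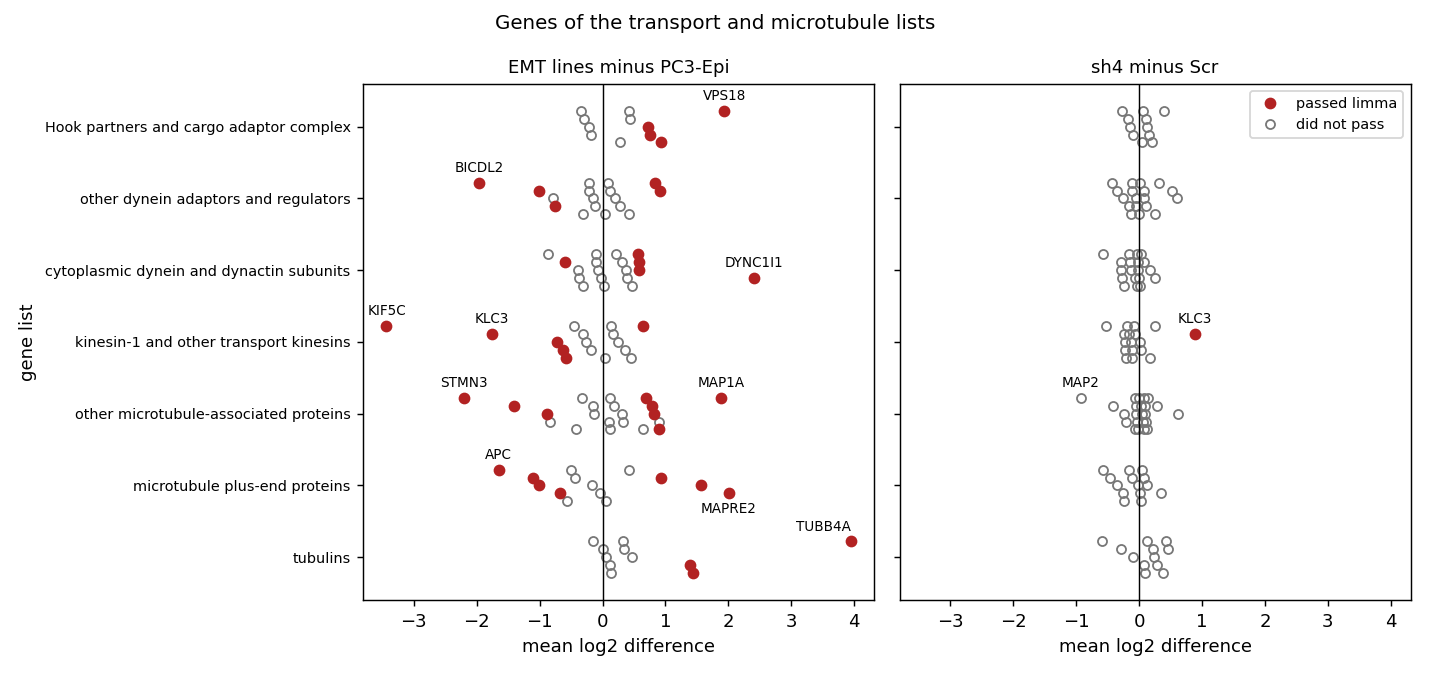
Mean log2 difference of each tested gene in the 7 transport and microtubule lists, EMT lines minus PC3-Epi on the left and sh4 minus Scr on the right, on the same scale; red points passed limma at an adjusted p under 0.05 and open points did not, and the height within a row has no meaning. In the EMT lines 22 of 109 genes rose and 16 fell, from KIF5C at -3.43 to TUBB4A at 3.94, and with sh4 only KLC3 passed, at 0.89.

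Of 21 tested microtubule-associated proteins, 5 rose and 3 fell (median 0.12). STMN3, which sequesters tubulin, fell by 2.20, MAP1A, which binds the lattice, rose by 1.88, MTUS1 fell by 1.41 and MTCL1, a MARK-bound crosslinker, rose by 0.89 (limma adjusted p from 0.00231 to 0.0281). MAP1A was under background in PC3-Epi, and its 3 probe sets ran from 0.05 to 1.88 with a mean of 0.70 that was too dim to test. The probe sets of STMN3 ran from -2.20 to -1.10 and those of MTUS1 from -1.51 to -0.04. STMN3 was higher with sh4 by 0.62 and MAP2 differed by -0.93, and neither passed (0.0746 and 0.0717). MAP7D2, the remaining MAP7 relative, lay between 2.60 and 3.20 on the untransduced and between 4.40 and 4.68 on the transduced arrays, under background on all 8. Of 14 plus-end proteins, 3 rose and 4 fell (median -0.30), with the largest differences in MAPRE2, or EB2, SLAIN1, APC and CLASP2. On the brightest probe set MAPRE2 rose by 2.01, but its 3 probe sets ran from 0.04 to 2.01, and SLAIN1 rose by 1.56 on its only one. APC fell on its brightest probe set to values under background in all 3 EMT lines, so that the size of its change is not measured, and its 5 probe sets ran from -1.65 to 0.24. CLASP2 fell by 1.11, with 6 probe sets from -1.11 to 0.20. With sh4 SLAIN1 and APC were at -0.58 and -0.46 without passing. Of 11 tested tubulins 3 rose and none fell (median 0.33). TUBB4A was at 4.50 in PC3-Epi and at 8.58, 8.49 and 8.27 in the EMT lines (3.94, limma adjusted p = 0.000241), and TUBA1A and TUBB6 rose by 1.43 and 1.39. The PC3-Epi value of TUBB4A was close above the background of 4.43 on that array, so the size of its rise is not well measured. TUBB2A was higher by 0.47 and did not pass (0.118). Tubulin genes are close in sequence, so that a probe set may read more than 1 of them. With sh4 TUBA1A differed by -0.59 and TUBB4B by 0.46, and neither passed (0.0641 and 0.148).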

How the data were processed

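Each of 8 samples was hybridised to 1 Affymetrix U133 Plus 2.0 array. The authors made log2 values by RMA with the affy package, and the deposited log2 values were used unchanged. Probe sets with 1 symbol gave 19775 genes. A gene was read by its brightest probe set over the 8 arrays, and the members by all 15. The members, gene lists and tests were chosen with earlier results of these data known.

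Fits used limma 3.58.1 in R 4.3.3 (eBayes, Benjamini-Hochberg over the genes kept, threshold 0.05), and a gene was kept with at least 1 array at log2 5 or above. EMT against PC3-Epi used the 4 untransduced arrays (11921 genes, 2 residual and 3.87 prior degrees of freedom), so that PC3-Epi takes its spread from the EMT lines. For sh4 against Scr, 6 arrays of lines 1 and 14 were fitted with the line as a block (16662 genes, 2 residual and 5.38 prior degrees of freedom), since the number in the labels is that of the cell line. Its difference comes from the 4 transduced arrays and its spread also from the untransduced ones. A 2-fold limit in every line was counted beside the test. The fits were also run on simulated data with independent noise and no background level, and nothing is read from that run.

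Named genes were the members, ZEB1 and 4 markers, in each list the 4 largest absolute EMT differences and the 2 largest with sh4, and the 5 genes most like HOOK1 and most like MAP7. MAP7D2, KRT8, KRT18, FN1, CDH2, LAPTM5, CSF1R, ITGAM, AIF1, PTPRC, CD14, AKTIP and the FHIP genes were added after the values were seen. ACTR1A, ACTR1B and CD68 were not analysed here. Windows and loci are from RefSeq on GRCh38.p14. Alternatives changed the filter, probe set, normalization, added constant, eBayes option, block, fold limit and arrays.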

Additional observations from a re-analysis of the deposited data

Results flagged for a closer look

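MAP7D1 with sh4 against Scr moved in opposite directions in the lines, by 0.0167 in PC3-EMT1 and by -0.176 in PC3-EMT14 (log2). MAP7D3 on its brightest probe set differed from PC3-Epi by 0.129 in PC3-EMT1, 0.036 in PC3-EMT12 and -0.0488 in PC3-EMT14. With 1 array per line and condition the differences between lines were not tested.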

How the results depend on the processing

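Of 188 values recomputed under the alternatives, 170 stayed within the limits set for them, 17 moved and 1 reversed. The fall of HOOK2 in the EMT lines kept its call in 12 alternatives (limma adjusted p from 0.00322 to 0.0172), and HOOK3, MAP7D1 and MAP7D3, on their brightest probe sets or the mean of all, passed in none. HOOK3 and MAP7D3 gave no EMT value with the filter at log2 7 or with the mean of the probe sets, and MAP7D3 none without EMT replicate 1, because they then failed the filter. With 32 added on the linear scale, the EMT differences of HOOK1 and MAP7 were -2.54 and -1.67 and their sh4 differences 1.88 and 0.69. With the mean of the probe sets MAP7 was at -3.07 and 1.37. Leaving out 1 array at a time gave 1.95 (without Scr replicate 1) to 3.36 (without Scr replicate 14) for the sh4 difference of HOOK1. The range was 0.83 to 1.01 for MAP7 and -0.20 to 0.0415 for MAP7D1, which turned to 0.0415 without Scr replicate 14. The cause was not tested. Leaving out 1 array at a time gave 1841 to 4411 genes called in the EMT lines (3496 in all, 1841 without PC3-EMT14) and 41 to 630 with sh4 (196 in all, 41 without sh4 replicate 14 and 630 without Scr replicate 1). Testing every probe set gave 6563 EMT calls among more features. For the paired lines, the fit with no replicate block called 12 genes with sh4, and limma on the 4 transduced arrays called 0, with 2499 at an unadjusted p under 0.05. At 1.5-fold and 3-fold limits the counts were 2475 and 373 against 936 in the EMT lines, and 320 and 18 against 68 with sh4. PC3-Epi has 1 array, and signal under the bacterial controls limits HOOK1 and MAP7 folds to bounds.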
